A study of Mus musculus with 2 samples.

Results

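Translating ribosome affinity purification (TRAP) pulls tagged ribosomes, with the messages they carry, out of a tissue homogenate. The 10 genes described here encode enzymes and a chaperone that modify, fold and crosslink collagen: the prolyl 4-hydroxylase subunits P4ha1, P4ha2 and P4ha3, the lysyl hydroxylases Plod1, Plod2 and Plod3, the collagen chaperone Serpinh1, and the lysyl oxidases Lox, Loxl1 and Loxl2. They are 10 of 32531 genes listed in the count tables, were picked by name for their role in collagen biosynthesis, and were chosen by a process that already knew their counts in both libraries. Their levels and ratios are therefore a description, with no test, and the study has no second condition to test them against. Both libraries, IP2 and IP1, hold RNA immunopurified with anti-EGFP antibodies from the cerebral cortex of untreated adult mice of line ES2243 (Gdnf-EGFP/Rpl10a), in which regulatory sequences of Gdnf drive an EGFP-tagged ribosomal protein in the cells under study, named as pericytes. The labels give no age beyond adult, no other allele, and no word on whether IP2 and IP1 came from different animals or from pools, so the spread between them may be technical. RNA of the whole cortex was not analysed here, so levels are not enrichments.

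Collagen chains are modified before they fold. In the endoplasmic reticulum, prolyl hydroxylases add the hydroxyl groups that hold the triple helix together at body temperature, lysyl hydroxylases prepare lysines for sugar chains and crosslinks, and chaperones keep the folded molecule from aggregating. After secretion, copper-dependent lysyl oxidases turn lysines into the reactive aldehydes from which crosslinks form. In the brain the main collagen of the vessel wall is collagen IV of the basement membrane, which pericytes share with endothelial cells and astrocyte endfeet.

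All 10 genes were detected, and all 10 had a higher level in IP2 than in IP1. Levels are in CPM, counts scaled to a library total of 1000000 counts in genes. Every gene reached 1 CPM in both libraries, which 41.3% of all genes listed did, and 3 of the 10 (Plod1, Plod2 and Serpinh1) reached 10 CPM in both, against 28.3% of all genes. P4ha1 and Loxl2 passed 10 CPM in IP2 alone. These lines depend on transcript length, since a longer message gives more reads. Transcript lengths were not at hand, so the 10 genes are not ranked against each other by level. Taking at least 1.5-fold between the libraries as a line, 6 of the 10 were higher in IP2, against 13.7% of the 17306 genes with 10 or more counts, and 0 were lower in IP2, against 18.1%. All 10 members had the 10 counts. The median log2 ratio (IP2 over IP1) of the 10 genes was 0.79, and that of the 17306 genes -0.06.

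**Figure D1:**
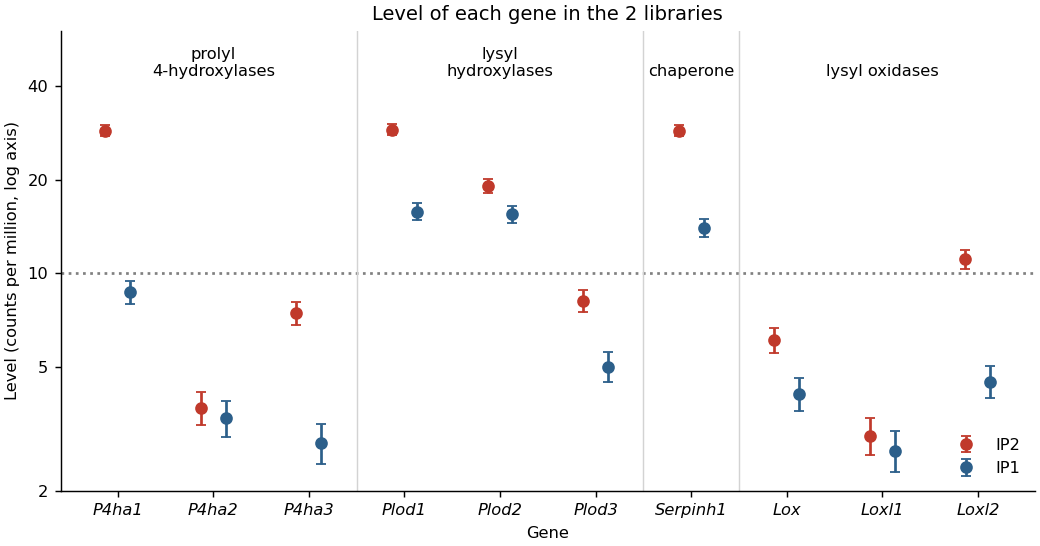
Level of each gene in IP2 (red, left of each pair) and IP1 (blue), in CPM on a log axis. Bars are exact Poisson 95% intervals, which cover counting error only, and the dotted line is 10 CPM. Every red point lies above its blue partner, and the intervals of the pair overlap for P4ha2 and Loxl1 alone. The share of all genes with intervals that lie apart was not computed, so this is not a trait of these genes.

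Upstream sequences from RefSeq (GRCm38.p6, the assembly also named mm10) were at hand for 6 of the 10 genes. Those of P4ha1 and P4ha2 are shown because the genes encode the same kind of subunit and differed most in their ratio between libraries within a family, and that of Serpinh1 because this collagen-specific chaperone had a ratio of 2.06. The P4ha1 stretch (chr10:59323046-59323196, plus strand), the P4ha2 stretch (chr11:54100674-54100923, plus strand) and the Serpinh1 stretch (chr7:99353240-99353489, minus strand) each end at the base before the earliest annotated start of the gene and run 5′ to 3′ along the gene's own strand. Capitals mark ACGTG and GCGTG on either strand, the core letters bound by hypoxia-inducible factors.
P4ha1: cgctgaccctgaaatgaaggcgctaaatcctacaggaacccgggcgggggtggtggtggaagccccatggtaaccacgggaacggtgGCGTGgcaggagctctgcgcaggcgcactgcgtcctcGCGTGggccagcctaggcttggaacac
P4ha2: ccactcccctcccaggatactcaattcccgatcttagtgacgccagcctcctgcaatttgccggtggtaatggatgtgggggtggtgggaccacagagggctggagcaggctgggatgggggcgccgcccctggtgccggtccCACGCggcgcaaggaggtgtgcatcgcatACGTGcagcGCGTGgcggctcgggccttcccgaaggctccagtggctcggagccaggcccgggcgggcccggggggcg
Serpinh1: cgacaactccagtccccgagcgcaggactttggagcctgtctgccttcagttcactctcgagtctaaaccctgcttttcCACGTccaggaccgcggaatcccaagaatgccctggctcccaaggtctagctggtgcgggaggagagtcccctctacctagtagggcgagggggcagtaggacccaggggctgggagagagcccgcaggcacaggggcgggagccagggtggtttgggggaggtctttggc

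The P4ha1 stretch holds 2 copies of GCGTG, the P4ha2 stretch holds 1 ACGTG and 2 GCGTG, and the Serpinh1 stretch holds 1 ACGTG. In the 250 bases before the start that the RefSeq table uses, which for P4ha1 and P4ha3 run past an earlier annotated start of the gene, ACGTG stood in 4 of the 6 genes (P4ha1, P4ha2, Plod3 and Serpinh1) and in 16.6% of all 32851 windows of that length. GCGTG stood in 4 of the 6 (P4ha1, P4ha2, Plod1 and Plod3) and in 28.2% of all windows. Of the 14 folding partners described below, 10 had such a sequence, and ACGTG and GCGTG each stood in 5 of these 10. The paired motif of CCAAT and CCACG with 9 bases between them, known from chaperone genes of the endoplasmic reticulum, was found in 0 of the 6 and in 0.113% of all windows. Among the 10 folding partners it stood in 2, Calr and Hspa5. A match is a description of letters and not of a bound site.

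The prolyl 4-hydroxylases held both the highest and the lowest ratio of the 10. Each of these genes encodes a catalytic alpha subunit that works in a tetramer with protein disulfide isomerase. P4ha1, the main form in most tissues (chromosome 10, 59323197 to 59373304), was at 28.8 CPM in IP2 and 8.70 CPM in IP1, from 2092 and 567 counts. The mean was 18.7 ± 14.2 CPM (SD, n = 2), and the fold of IP2 over IP1 was 3.31, with an exact binomial 95% interval of 3.01 to 3.64 that covers counting error only. This was the highest ratio of the 10 genes.

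P4ha3 (chromosome 7, 100285489 to 100319701), another alpha subunit, stood at 7.45 CPM in IP2 and 2.84 CPM in IP1, from 542 and 185 counts, a fold of 2.62 (2.22 to 3.12). P4ha2 (chromosome 11, 54100924 to 54131668), which forms the enzyme of type II and is known from cartilage and bone, was at 3.68 CPM in IP2 and 3.42 CPM in IP1, from 268 and 223 counts. Its fold of 1.08 had an interval of 0.899 to 1.29, so for P4ha2 a difference between the libraries was not detectable at this depth. The reads of the family summed to 39.9 CPM in IP2 and 14.95 CPM in IP1, a fold of 2.67.

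The mixture of alpha subunits in the reads differed between the libraries, as follows from their unlike ratios. P4ha1 took 72.1% of the family's counts in IP2 (exact 95% interval 70.4 to 73.7%) and 58.2% in IP1 (55.0 to 61.3%). P4ha2 took 9.24% in IP2 (8.21 to 10.3%) and 22.9% in IP1 (20.3 to 25.6%). P4ha3 took 18.7% in IP2 (17.3 to 20.1%) and 19.0% in IP1 (16.6 to 21.6%), and its intervals overlap. These shares are of raw counts and not per length, so they compare a gene with itself between libraries and do not give the proportions of the enzymes.

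The lysyl hydroxylases had ratios of 1.24 to 1.83. Plod1, which acts on lysines within the triple helix (chromosome 4, 147909753 to 147936776), was at 29.0 CPM in IP2 and 15.8 CPM in IP1, from 2108 and 1030 counts. Its fold was 1.83 (1.70 to 1.98). Plod2, which acts on the ends of the chains and thereby directs collagen towards stable pyridinoline crosslinks (chromosome 9, 92539636 to 92608428), was at 19.1 CPM in IP2 and 15.5 CPM in IP1, from 1391 and 1008 counts. Its fold of 1.24 (1.14 to 1.34) exceeded counting error but stayed under the 1.5-fold line, and its mean of 17.3 ± 2.59 CPM (SD, n = 2) had a spread narrower than that of Plod1 (22.4 ± 9.32 CPM).

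Plod3, which also carries glycosyltransferase activity and adds sugars to hydroxylysine (chromosome 5, 136987019 to 136996646), was at 8.14 CPM in IP2 and 5.02 CPM in IP1, from 592 and 327 counts, a fold of 1.62 (1.42 to 1.86). It was the gene nearest above the 1.5-fold line. In shares of the family's counts, Plod1 made up 51.5% in IP2 (49.98 to 53.1%) and 43.6% in IP1 (41.5 to 45.6%). Plod2 made up 34.0% in IP2 (32.5 to 35.5%) and 42.6% in IP1 (40.6 to 44.6%), and Plod3 14.5% (13.4 to 15.6%) and 13.8% (12.5 to 15.3%). Plod3 overlaps the start of Znhit1 and the microRNA gene Mir702, and Plod2 overlaps the noncoding gene B430319G15Rik. Some reads of Plod3 and Plod2 may therefore have been left unassigned or shared, as the strand setting of the counting is not given in the sources used here.

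Serpinh1, also called Hsp47, is the chaperone that binds folded procollagen in the endoplasmic reticulum and releases it on the way to the Golgi. The gene (chromosome 7, 99345375 to 99353239) was at 28.7 CPM in IP2 and 13.97 CPM in IP1, from 2091 and 911 counts. Its mean was 21.4 ± 10.4 CPM (SD, n = 2), and its fold 2.06 (1.90 to 2.23). Its counting interval overlapped that of Plod1 and lay below that of P4ha1.

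The lysyl oxidases Lox, Loxl1 and Loxl2 had ratios of 1.12 to 2.48. Loxl2, an oxidase with scavenger receptor repeats that is known to crosslink collagen IV (chromosome 14, 69608692 to 69695834), was at 11.1 CPM in IP2 and 4.48 CPM in IP1, from 808 and 292 counts, a fold of 2.48 (2.17 to 2.85). Lox, the founding enzyme of the family, which acts on fibrillar collagen and elastin, was at 6.09 CPM in IP2 and 4.10 CPM in IP1, from 443 and 267 counts. Its fold of 1.49 (1.27 to 1.74) placed it nearest below the 1.5-fold line. Loxl1, which is known for its part in elastic fibre upkeep, was at 2.997 CPM in IP2 and 2.68 CPM in IP1, from 218 and 175 counts. Its fold of 1.12 had an interval of 0.911 to 1.37, so its difference too was not detectable at this depth. Loxl2 overlaps the noncoding gene Gm27177, which has no row of its own in the count tables, and the microRNA gene Mir6950, which has a row.

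Among the family's counts, Loxl2 took 55.0% in IP2 (52.4 to 57.6%) and 39.8% in IP1 (36.2 to 43.4%). Lox took 30.2% in IP2 (27.8 to 32.6%) and 36.4% in IP1 (32.9 to 39.97%). Loxl1 took 14.8% in IP2 (13.1 to 16.8%) and 23.8% in IP1 (20.8 to 27.1%). In each enzyme family the gene with the highest ratio between libraries (P4ha1, Plod1 or Loxl2) also held a larger share in IP2. That follows from the ratios and is not a separate result. The share intervals of these genes did not overlap between libraries, but they cover counting error only.

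**Figure D2:**
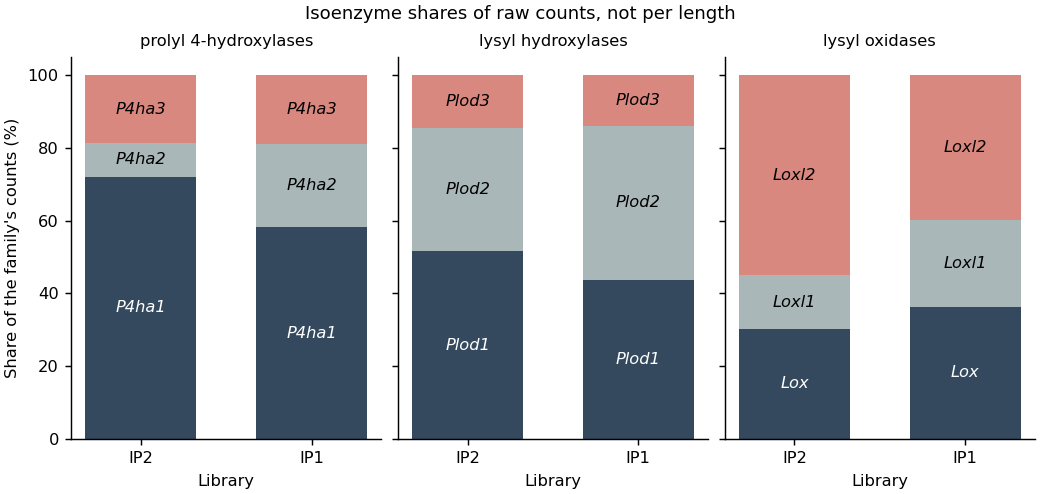
Share of each isoenzyme in the summed raw counts of the members of its family (percent, stacked to 100), with IP2 left and IP1 right in each panel. Loxl3 and Loxl4 are not members and are not included. P4ha1, Plod1 and Loxl2 hold 72.1, 51.5 and 55.0% of these counts in IP2, against 58.2, 43.6 and 39.8% in IP1.

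In order of their ratio between libraries the genes ran P4ha1 (log2 ratio 1.72), P4ha3 (1.39), Loxl2 (1.31), Serpinh1 (1.04), Plod1 (0.88), Plod3 (0.70), Lox (0.57), Plod2 (0.31), Loxl1 (0.16) and P4ha2 (0.11). The counting intervals of all neighbours in this order overlapped. Overlap alone does not show that neighbours were alike, and no comparison between neighbours was run. P4ha1 (1.59 to 1.86) lay clear of every gene from Loxl2 (1.12 to 1.51) down. P4ha3 had a mean level of 5.14 ± 3.26 CPM, P4ha2 of 3.55 ± 0.19 CPM and Loxl1 of 2.84 ± 0.22 CPM (SD, n = 2). Of the 9656 genes whose mean level reached 10 CPM, 6.56% were 1.5-fold or more higher in IP2, and 3 of the 4 members above that mean were (P4ha1, Plod1 and Serpinh1). Of the 7748 genes with a mean of 1 to 30 CPM, the range that holds all 10 members, 14.4% were. At a line of 2-fold, 4 of the 10 were higher in IP2 (P4ha1, P4ha3, Loxl2 and Serpinh1), against 7.15% of genes with 10 or more counts. A ratio above 1 was found for all 10 members and for 44.7% of those genes.

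**Figure D3:**
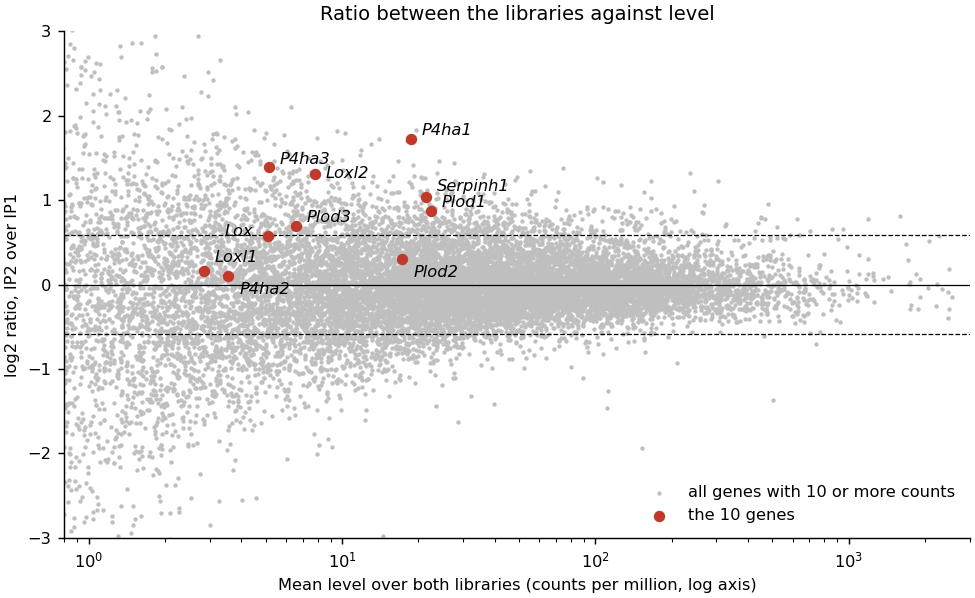
log2 ratio of IP2 over IP1 against the mean level in CPM (log axis) for genes with 10 or more counts (grey, axes limited to the range shown) and the 10 collagen-modifying genes (red). Dashed lines mark 1.5-fold, and 6 of the 10 red points lie above the upper one.

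The partners of these enzymes in folding and 3-hydroxylation had a similar ratio between libraries. The list of 14 held the beta subunit of prolyl 4-hydroxylase, the prolyl 3-hydroxylases, peptidyl-prolyl isomerases and general chaperones. Of these, 12 of 14 were 1.5-fold or more higher in IP2 and 0 were lower, and the median log2 ratio was 0.80. Over all genes with 10 or more counts, 13.7% were higher and 18.1% lower, for this list and those below. P4hb, the protein disulfide isomerase that forms the beta subunit, was at 69.8 CPM in IP2 and 41.8 CPM in IP1 (fold 1.67). Hspa5, the chaperone BiP, was at 222.6 CPM in IP2 and 109.8 CPM in IP1 (2.03), and the calcium-binding chaperone gene Calr at 99.2 and 64.6 CPM (1.53). Pdia4, another disulfide isomerase, was at 35.3 CPM in IP2 and 12.8 CPM in IP1 (2.75). The prolyl 3-hydroxylase gene P3h3 was at 12.04 CPM in IP2 and 4.36 CPM in IP1 (2.76), and P3h1 at 6.20 and 2.84 CPM (2.18). In this list 6 of 14 genes reached 10 CPM in both libraries, against 28.3% of all genes listed.

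Other enzymes of prolyl and lysyl modification had a lower median ratio. Of 7 genes, 2 were 1.5-fold or more higher in IP2 and 0 lower, with a median log2 ratio of 0.46. These were Colgalt1, which puts galactose on hydroxylysine (13.02 CPM in IP2, 7.16 CPM in IP1, fold 1.82), and P4htm, a membrane-bound prolyl hydroxylase (7.16 and 4.66 CPM, 1.53). Tgm2, a transglutaminase that links matrix proteins, was at 30.2 CPM in IP2 and 21.99 CPM in IP1 (1.37), Pxdn, the peroxidase that forms sulfilimine crosslinks in collagen IV, at 7.42 and 5.08 CPM (1.46), and Colgalt2 at 7.04 and 5.57 CPM (1.26).

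In procollagen export, 2 of 9 genes were past the line towards IP2 and 0 towards IP1. Over all genes with 10 or more counts, 13.7% and 18.1% were, and the median log2 ratio of the list was 0.05. The 2 were the cargo receptors that load bulky procollagen into transport vesicles, Mia3 (54.9 CPM in IP2, 30.3 CPM in IP1, fold 1.81) and Mia2 (56.1 and 34.0 CPM, 1.65). The general vesicle coat and secretion genes Tfg (180.0 CPM in IP2, 174 CPM in IP1), Sec23a (90.01 and 107 CPM) and Sar1b (106 and 87.6 CPM) had folds of 1.03, 0.84 and 1.22. All 9 genes reached 10 CPM in both libraries, against 28.3% of all genes listed.

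Of the 9 genes of procollagen trimming, 7 had 10 or more counts, 3 of these were past the line towards IP2 and 0 towards IP1, with a median log2 ratio of 0.54. Bmp1, the protease that removes the carboxy-terminal propeptide and also activates Lox, was at 5.58 CPM in IP2 and 2.09 CPM in IP1 (fold 2.67). Its enhancers Pcolce2 (3.81 CPM in IP2, 1.26 CPM in IP1, fold 3.01) and Pcolce (24.5 and 16.9 CPM, 1.46) were on the same side of 1. Adamts14 passed the line at low counts (0.32 and 0.12 CPM). The amino-terminal propeptidase genes Adamts2 (4.17 CPM in IP2, 5.31 CPM in IP1, fold 0.785) and Adamts3 (6.78 and 6.18 CPM, 1.10) stayed inside the line, and Mep1b had no count in either library.

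Genes for cofactor supply showed ratios in both directions. Of 9, 8 had 10 or more counts, 3 of them were past the line towards IP2 and 1 towards IP1, and the median log2 ratio was 0.21. Atp7a, the pump that loads copper into secreted enzymes such as the lysyl oxidases, was at 77.2 CPM in IP2 and 49.6 CPM in IP1 (fold 1.56). Ero1l, which reoxidises disulfide isomerases, was at 33.6 and 20.4 CPM (1.65), and the glucose transporter gene Slc2a1, whose protein also carries oxidised vitamin C, at 24.1 and 15.3 CPM (1.57). The copper chaperone gene Atox1 went the other way, with 15.7 CPM in IP2 and 30.02 CPM in IP1 (0.52). The vitamin C transporter gene Slc23a2 (89.3 CPM in IP2, 71.3 CPM in IP1), the copper importer gene Slc31a1 (40.4 and 41.6 CPM) and Idh1 (72.6 and 76.7 CPM), whose enzyme makes alpha-ketoglutarate, stayed inside the line.

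Of the substrates, 14 of 15 collagen and elastin genes had a ratio above 1, against 44.7% of genes with 10 or more counts. In this list 8 of 15 were 1.5-fold or more higher in IP2 and 0 lower, and the median log2 ratio was 0.64. Col1a2 was at 90.3 CPM in IP2 and 47.6 CPM in IP1 (fold 1.90), and Col1a1 at 34.7 and 19.5 CPM (1.78). Col4a1 and Col4a2, the common chains of basement membrane collagen, were at 32.1 CPM in IP2 and 15.2 CPM in IP1 (2.11) and at 41.6 and 25.0 CPM (1.66). Col5a1 (4.41 CPM in IP2, 1.64 CPM in IP1, fold 2.68) and Col15a1 (12.9 and 6.47 CPM, 1.99) completed the genes with the 3 highest ratios. Col8a1, named after its values were seen, was the gene with a ratio below 1, at 7.88 CPM in IP2 and 11.01 CPM in IP1 (0.72). Over the 63 genes of these 6 lists, 60 had 10 or more counts, of which 30 were 1.5-fold or more higher in IP2 and 1 was lower. The shares over all genes with 10 or more counts were 13.7% and 18.1%. None of these lists is independent of earlier results of these data, so the counts describe them and test nothing.

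**Figure D4:**
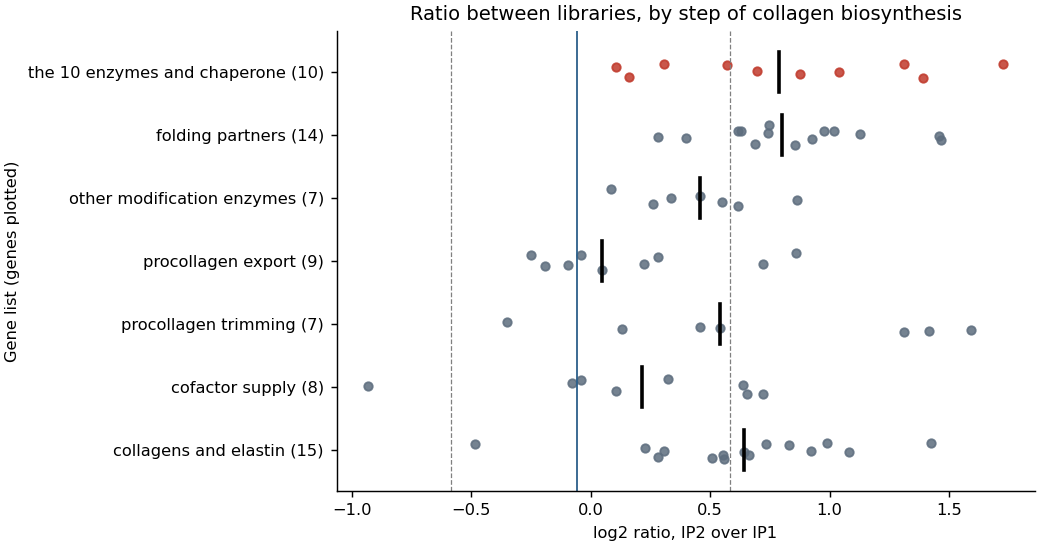
log2 ratio of IP2 over IP1 for the 10 enzymes and chaperone (red) and for 6 lists of other genes of collagen biosynthesis (grey), limited to genes with 10 or more counts. Black bars are list medians, the blue line is the median of all such genes (-0.06) and dashed lines mark 1.5-fold; folding partners (0.80) and the collagens and elastin (0.64) have medians above the upper line, and procollagen export (0.05) does not.

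Many cell types make collagen-modifying enzymes, and markers of several of them also differed between the libraries. In immunopurified RNA, more cells of a type, more RNA per cell and more RNA carried over from cells without the tag cannot be told apart. IP2 held 72732502 and IP1 65200231 counts in genes. For each marker list the shares over all genes are the same: 13.7% past the line towards IP2, 18.1% towards IP1 and 28.3% at 10 CPM in both. All 10 pericyte markers, from Vtn (491 ± 134 CPM) down to P2ry14 (46.4 ± 2.74 CPM), reached 10 CPM in both libraries. Their levels summed to 2161 CPM in IP2 and 1617 CPM in IP1, with a median log2 ratio of 0.43 and 2 of 10 past the 1.5-fold line towards IP2. All 8 pan-mural markers, from Rgs5 (4451 ± 551 CPM) to Mcam (41.9 ± 15.999 CPM), were also present, with sums of 5314 and 6322 CPM, a median of 0.01, 3 past the line towards IP2 and 1 towards IP1. For the 8 arterial smooth muscle markers, from Myl9 to Cnn1, the sums were 1876 CPM in IP2 and 2180 CPM in IP1 and the median -0.07, with 0 past the line either way.

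The 10 perivascular and meningeal fibroblast markers, from Apod (2079 ± 519 CPM) to Dpt (2.53 ± 0.63 CPM), summed to 3591 CPM in IP2 and 2442 CPM in IP1, with a median log2 ratio of 0.45, 4 past the line towards IP2 and 8 of 10 at 10 CPM in both. The 8 astrocyte markers, from Slc1a2 (1593 ± 615 CPM) to Aldh1l1 (9.56 ± 1.78 CPM), summed to 2943 and 1896 CPM, with a median of 0.60, 4 past the line towards IP2 and 7 at 10 CPM in both. The 8 oligodendrocyte precursor markers, from Olig1 to C1ql1, summed to 2986 and 2400 CPM, with a median of 0.46, 3 past the line and all 8 at 10 CPM. Neuron markers (Snap25 to Tubb3, 8 of 8) summed to 13700 and 15835 CPM with a median of -0.02 and 0 past the line. Some genes count in more than 1 list: Col1a1, Col1a2 and Col3a1 are both fibroblast markers and substrates, Pdgfra marks fibroblasts and oligodendrocyte precursors, and Cspg4 mural cells and those precursors. The part of these cell types in the ratios of the collagen-modifying genes was not tested.

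Endothelial and microglial markers had the lowest sums of the marker lists. In IP1 the endothelial sum was close to that of the 10 collagen-modifying genes. The 8 endothelial markers summed to 74.0 CPM in IP2 and 72.3 CPM in IP1, with 1 of 8 (Emcn, 37.7 ± 6.23 CPM) at 10 CPM in both. Cldn5, the defining tight junction gene, had 0 counts in IP2 and 5 in IP1. Over the 7 endothelial markers with 10 or more counts the median log2 ratio was 0.69, with 4 past the line towards IP2 and 1 towards IP1. The 8 microglial markers, from Tmem119 (11.5 ± 2.90 CPM) to C1qa (0.14 ± 0.11 CPM), summed to 35.6 and 31.4 CPM. Their median was 0.09, with 2 past the line towards IP2, 1 towards IP1 and 0 of 8 at 10 CPM in both. The 10 collagen-modifying genes summed to 145 CPM in IP2 and 76.5 CPM in IP1. Their median level was 9.62 CPM in IP2 and 4.75 CPM in IP1, against 6.01 and 5.09 CPM for the endothelial markers.

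**Figure D5:**
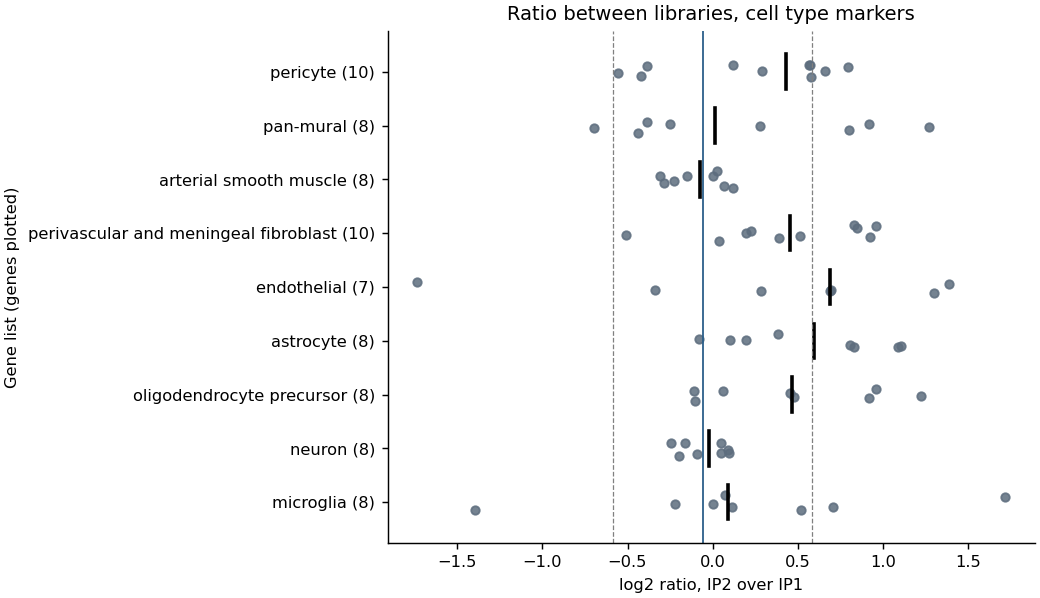
log2 ratio of IP2 over IP1 for markers of 9 cell types with 10 or more counts, with black bars at list medians, a blue line at the median of all genes (-0.06) and dashed lines at 1.5-fold. Endothelial (0.69), astrocyte (0.60), oligodendrocyte precursor (0.46), fibroblast (0.45) and pericyte (0.43) medians lie to the right of the blue line. Microglial (0.09), pan-mural (0.01), neuron (-0.02) and arterial smooth muscle (-0.07) medians lie closer to it.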

How the data were processed

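RNA of 2 immunopurified libraries of 1 group was sequenced. STAR 2.0.0e, the mm10 genome and HTSeq are named in the submitters' processing notes for alignment and counting. The deposited files hold raw counts per gene symbol, with no normalization. Neither the annotation nor the strand setting is given in the sources used here. Summary rows and the row named unknown were left out of library sizes. Reads in genes were 57.7% of the total in IP2 and 58.1% in IP1, and reads aligned to several places (31.5% and 31.2%) were unassigned.

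CPM were computed on total gene counts. For ratios (log2, IP2 over IP1) 0.5 counts were added to each count, and the background is the 17306 genes with 10 or more counts. Poisson, binomial share and ratio intervals are exact, at 95%, and cover counting error only, since PCR copies are not marked. With 1 library a side no p-value was computed. The planned scaling by transcript length was not possible with the tables used here, so shares are of raw counts. The rows Mia2 and Ctage5, names of 1 gene in the list, were summed. The members, gene lists and named genes were chosen with earlier results of these data known. Named are all members, in each pathway list the 4 highest, those with no count and the up to 3 largest ratios past 1.5-fold, and in each marker list the highest and lowest; 1 marker list is not reported here. Coordinates and upstream sequences are from RefSeq GRCm38.p6. Alternatives used TMM (edgeR 4.0.16) and DESeq2 1.42.0 size factors in R 4.3.3; the rest used scipy 1.17.1, pandas 2.3.3 and numpy 2.4.6 in Python 3.11.15. The ratio step was tested on simulated counts with Poisson error only. That checks the calculation and says nothing about the spread between libraries.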

Additional observations from a re-analysis of the deposited data

How the results depend on the processing

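All 40 recomputed member ratios (TMM, DESeq2 size factors, prior counts of 0 and 2) kept their direction and stayed within their counting intervals. These settings left little room for another outcome. TMM and DESeq2 each shift every ratio by 1 constant, and the prior counts are small beside the members' counts. All 30 member levels recomputed with other library sizes (TMM, DESeq2, total without Rn45s) moved by less than 1 SD. Leaving out a library gave the other's level alone, which was over 1.5 times from the mean without IP2 for P4ha1 (8.70 to 28.8 CPM), P4ha3 (2.84 to 7.45 CPM), Loxl2 (4.48 to 11.1 CPM) and Serpinh1 (13.97 to 28.7 CPM), and without IP1 for P4ha1. With TMM or DESeq2 scaling the count of members 1.5-fold or more higher in IP2 was 7 instead of 6, as Lox crossed the line, and the share over all genes was 15.2% and 15.3% instead of 13.7%. The count was 4 of 10 at a 2-fold line and 4 of 7 over the members that overlap no other gene, an alternative added after seeing the data. The median log2 ratio of the members ranged up to 0.96 (members with a mean of at least 10 CPM). The number of members at 10 CPM in both libraries, 3, was 10 at 1 CPM and 0 at 20 CPM, and leaving out either library gave 3 to 5. At 1 CPM the lists held 14 folding partners, 6 other modification enzymes, 5 trimming genes and 14 collagens and elastin. Over all genes, 1237 were higher and 1960 lower in IP2 at a 2-fold line, and 633 higher and 427 lower among those with a mean of at least 10 CPM. No paired analysis was possible because both libraries belong to 1 group. Scaling by coding length was not run, as no lengths were at hand. At this depth the ratios of P4ha2 and Loxl1 could not be told from 1.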

Other observations

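The folding partners include general chaperones, so other genes of the endoplasmic reticulum were read as well. These lists were drawn up after their values were seen and are a description only. Of all genes with 10 or more counts, 44.7% had a ratio above 1. At the 1.5-fold line, 13.7% were higher in IP2 and 18.1% lower. Of 13 further chaperones and folding helpers of the endoplasmic reticulum, all 13 had a ratio of IP2 over IP1 above 1, 8 were 1.5-fold or more higher in IP2 and 0 were lower, and the median log2 ratio was 0.77. Sdf2l1, a partner of BiP, was at 12.4 CPM in IP2 and 4.74 CPM in IP1 (fold 2.61). The disulfide isomerase gene Pdia6 was at 36.5 CPM in IP2 and 17.2 CPM in IP1 (2.12), and Pdia3 at 179 and 94.7 CPM (1.89). Dnajc3, a co-chaperone of the unfolded protein response, was at 128 and 69.1 CPM (1.86). Hsp90b1, with the most reads of this list, was at 513 CPM in IP2 and 405 CPM in IP1 (1.26) and stayed inside the line.

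Of 8 genes of the translocon and of glycosylation at the endoplasmic reticulum, 4 were past the line towards IP2 and 0 towards IP1, with a median log2 ratio of 0.56. Ddost, a subunit of oligosaccharyltransferase, was at 36.9 CPM in IP2 and 17.2 CPM in IP1 (fold 2.14), while the translocon subunit gene Sec61b was at 7.91 and 10.7 CPM (0.74). The signal peptidase subunit gene Spcs1 was at 23.8 CPM in IP2 and 24.7 CPM in IP1 (0.96). Of 5 chaperones of the cytosol, 0 passed the line in either direction and the median log2 ratio was -0.18. Hspa8 was at 146 CPM in IP2 and 104 CPM in IP1 (fold 1.39), and the stress-inducible Dnajb1 at 238 and 286 CPM (0.83). The cause of these ratios was not tested.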
